A study of Danio rerio with 4 samples.

Results

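The 10 genes described here are CXC chemokine genes of zebrafish (Danio rerio), read in whole embryos with a mutated tubgcp6 gene and in their siblings. They were chosen by symbol as 5 inflammatory ligand genes (cxcl18a.1, cxcl18b, cxcl8a, cxcl8b.1, cxcl8b.3), 3 homeostatic ligand genes (cxcl12a, cxcl12b, cxcl14) and 2 receptor genes (cxcr1, cxcr2), out of 23236 rows in the table of raw read counts. The choice was made with their levels in mutants and siblings in view, so their differences between the groups are given as a description with errors and without tests. Of the 10, 9 had a row, 8 had enough counts to be fitted, cxcr2 did not, and no row carried the name cxcr1, for which no value is given.

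Embryos of the AB laboratory strain came from intercrosses of tubgcp6+/- parents, were kept in egg water at 28 °C without treatment and were genotyped at 7 days post fertilisation (dpf). The tubgcp6 protein is part of the gamma-tubulin ring complex, which starts new microtubules. The groups were tubgcp6 mutants and siblings, with 2 libraries each, labelled as biological replicates. The lesion in tubgcp6, the genotypes within the sibling group, the number of embryos per library and whether the groups shared clutches were not given in the labels, so errors and p-values cover only how far these libraries differ, which may be technical.

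Chemokines are small secreted proteins that steer migrating cells, and the CXC class is named for a pair of conserved cysteines with a single residue between them. Cxcl8 ligands are released at wounds and infections and act on neutrophils through Cxcr1 and Cxcr2, and Cxcl18b is a ligand of fish that recruits neutrophils through Cxcr2. Cxcl12 ligands are made steadily by many tissues, guide germ cells, the lateral line and blood stem cells through Cxcr4, and are cleared from tissue by the scavenger receptor Ackr3.

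Reads assigned to genes totalled 14246582 to 20652276 per library. The counts of tubgcp6 itself lay between 498 and 803, at a mean of 29.7 ± 0.639 CPM for mutants against 37.1 ± 2.59 CPM for siblings (SD, n = 2 each), where CPM is the count scaled by the library total to a common size. Its difference, as the log2 ratio of mutants to siblings used for all fold changes here, was -0.33 ± 0.10 (SE); the adjusted p was 0.0123 by edgeR and 0.0585 by DESeq2. Without sibling replicate 2 the edgeR value was -0.25, with an adjusted p of 0.267. Of 18 markers of embryonic tissues, 17 had a row, at 1.77 to 10406 CPM, and in edgeR 5 of these were higher and 6 lower in mutants. They included the liver gene tfa (1.48 ± 0.08, log2 ratio ± SE), the pancreas gene ela2 (-2.05 ± 0.09) and the globin gene hbbe2 (-1.26 ± 0.10); the part of such shifts between tissues in the chemokine values was not tested. Of the 20097 genes tested, 22.9% were called higher in mutants and 21.0% lower, by edgeR at an adjusted p under 0.05, and the median log2 fold change was 0.01.

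Mutant embryos held more reads of all 5 inflammatory ligand genes, whereas among the homeostatic ligand genes cxcl12a was moderately higher and cxcl12b and cxcl14 were near their sibling levels. Both mutant libraries lay above both sibling libraries for 5 of 5 inflammatory and 1 of 3 homeostatic ligand genes. Over all genes tested this was so for 36.6%, the reverse for 35.1%, and the groups overlapped for 28.3%. The median log2 fold change was 2.36 over the inflammatory ligand genes, with a range of 1.16 to 3.16, and 0.14 over the homeostatic ones, with a range of -0.04 to 0.53. As these RNAs came from whole embryos, more or fewer cells of a type and more or less RNA per cell cannot be told apart.

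**Figure D1:**
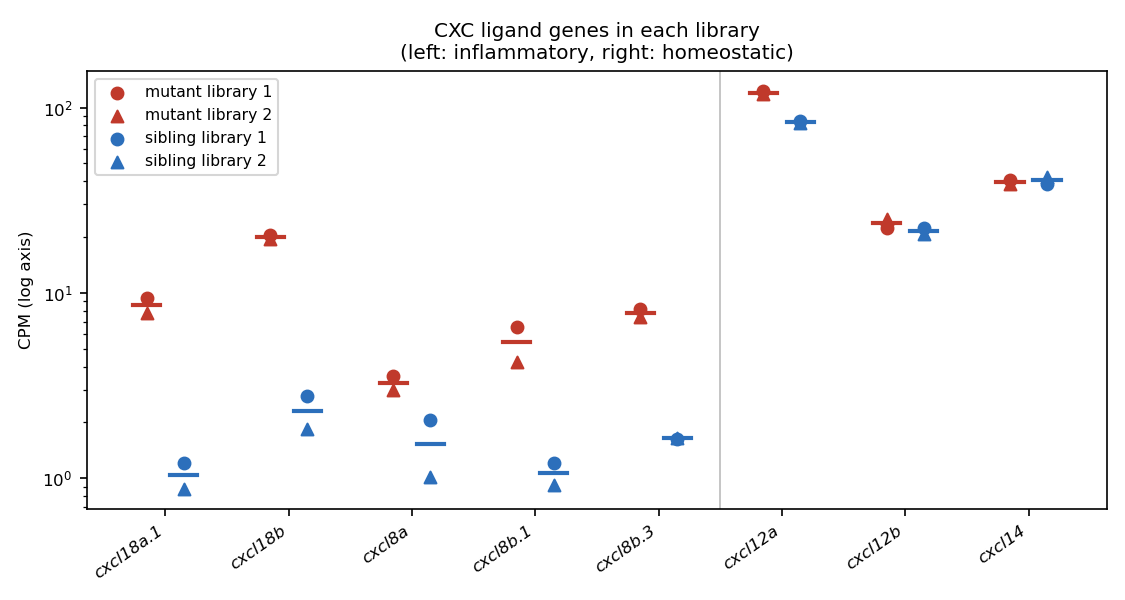
Levels of the 8 fitted ligand genes in each library, in CPM on a log axis, with short lines for the group means of 2 libraries. Mutant libraries (red) lie above sibling libraries (blue) for the 5 inflammatory ligand genes and cxcl12a, and the groups overlap for cxcl12b and cxcl14.

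The cxcl18 genes, of a chemokine family found in fish, differed most between the groups. The level of cxcl18b was 20.5 and 19.6 CPM in the mutant libraries and 2.76 and 1.84 CPM in the sibling libraries, from 346, 356, 39 and 38 counts. The lower mutant library was thus 7.10 times the higher sibling library. The log2 fold change was 3.16 ± 0.19 (SE), a fold of 8.96 that stood at rank 51 of the 20097 genes ordered from the highest fold change.

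Its relative cxcl18a.1, on another chromosome, had a difference of similar size at a lower count. It was read at 9.34 and 7.82 CPM in mutants and 1.204 and 0.873 CPM in siblings, from 158, 142, 17 and 18 counts. The groups lay far apart, with the lower mutant library at 6.49 times the higher sibling library. The log2 fold change was 3.08 ± 0.27 (SE), or 8.43-fold, at rank 58. The counts of cxcl18b over those of cxcl18a.1 were 2.19 and 2.51 in mutants and 2.29 and 2.11 in siblings, so the ratio between the cxcl18 genes was in the same range in both groups.

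The zebrafish genome holds a single-copy cxcl8a gene and a group of cxcl8b genes side by side on another chromosome, all related to the human neutrophil attractant interleukin 8. Both cxcl8b genes were clearly higher in mutants. The level of cxcl8b.3 was 8.22 and 7.43 CPM in mutants and 1.63 and 1.65 CPM in siblings, from 139, 135, 23 and 34 counts, with a log2 fold change of 2.25 ± 0.24 (SE). For cxcl8b.1 it was 6.56 and 4.24 CPM in mutants and 1.204 and 0.921 CPM in siblings, from 111, 77, 17 and 19 counts, with a log2 fold change of 2.36 ± 0.31. By fold change cxcl8b.3 stood at rank 147 and cxcl8b.1 at rank 121. Among the ligand genes, cxcl8b.1 had the widest gap between the mutant libraries, 0.63 on the log2 scale, but the lower of them was still 3.52 times the higher sibling library.

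How reads that match both cxcl8b genes were assigned was not given in the labels, so the split between them is uncertain. With their counts added together before the fit, an alternative chosen after seeing the data, the log2 fold change was 2.30 ± 0.20 (SE). The counts of cxcl8b.3 over those of cxcl8b.1 were 1.25 and 1.75 in mutants and 1.35 and 1.79 in siblings, and these ranges overlapped.

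The smallest difference among the inflammatory ligand genes was that of cxcl8a. It was read at 3.55 and 2.97 CPM in mutants and 2.05 and 1.02 CPM in siblings, from 60, 54, 29 and 21 counts. The groups did not overlap, but the sibling libraries differed from each other by 1.01 on the log2 scale, the widest gap within a group among the fitted ligand genes, and the lower mutant library was only 1.45 times the higher sibling library. The log2 fold change was 1.16 ± 0.32 (SE), or 2.24-fold, at rank 989, with values of 0.66 to 1.67 when a library was left out. The counts of cxcl8b.3 over those of cxcl8a were 2.32 and 2.50 in mutants and 0.793 and 1.62 in siblings. Those of cxcl18b over cxcl8a were 5.77 and 6.59 in mutants and 1.34 and 1.81 in siblings, so within the same libraries cxcl8a differed less between the groups than these relatives.

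The homeostatic ligand gene cxcl12a encodes the Cxcl12 protein that guides the zebrafish lateral line primordium. It was read at 122 and 118 CPM in mutants and 84.1 and 82.0 CPM in siblings, from 2072, 2139, 1187 and 1691 counts. Libraries of a group lay close together and the groups did not overlap. The log2 fold change was 0.53 ± 0.09 (SE), or 1.45-fold, at rank 3313, with values of 0.50 to 0.56 when a library was left out.

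Its paralogue cxcl12b, a ligand gene with roles in vessel patterning, had overlapping groups. The level was 22.4 and 25.2 CPM in mutants and 22.5 and 20.9 CPM in siblings, and the log2 fold change was 0.14 ± 0.12 (SE). The counts of cxcl12a over those of cxcl12b were 5.47 and 4.68 in mutants and 3.74 and 3.92 in siblings. The ratio was thus higher in these mutant libraries, and a difference in balance between the paralogues was not tested. The gene cxcl14 encodes a ligand that epithelia make steadily in mammals. It was at 40.7 and 38.6 CPM in mutants and 38.9 and 42.2 CPM in siblings, with a log2 fold change of -0.04 ± 0.10, and its groups overlapped. An interval of 2 SE on either side of these differences spans -0.10 to 0.37 for cxcl12b and -0.24 to 0.16 for cxcl14. For cxcl12a it spans 0.36 to 0.70, which meets that of cxcl12b. By fold change cxcl12b stood at rank 7810 and cxcl14 at rank 10884.

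Within each library, the inflammatory genes gave 20.6% and 18.8% of the reads of the 8 ligand genes in mutants and 5.74% and 4.16% in siblings. The 95% exact binomial intervals ran from 17.6% to 21.9% over the mutant libraries and from 3.49% to 6.80% over the sibling libraries. They cover counting error only and do not test the groups, as the genes were chosen with their levels in view. The percentages are shares of reads and not of molecules, as no transcript lengths were used. A gene's share can thus be compared between libraries but not with that of another gene. Among the reads of the 5 inflammatory genes, the share of cxcl18b was 42.5% and 46.6% in mutants and 31.2% and 29.2% in siblings. The share of cxcl8a was 7.37% and 7.07% in mutants and 23.2% and 16.2% in siblings.

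**Figure D2:**
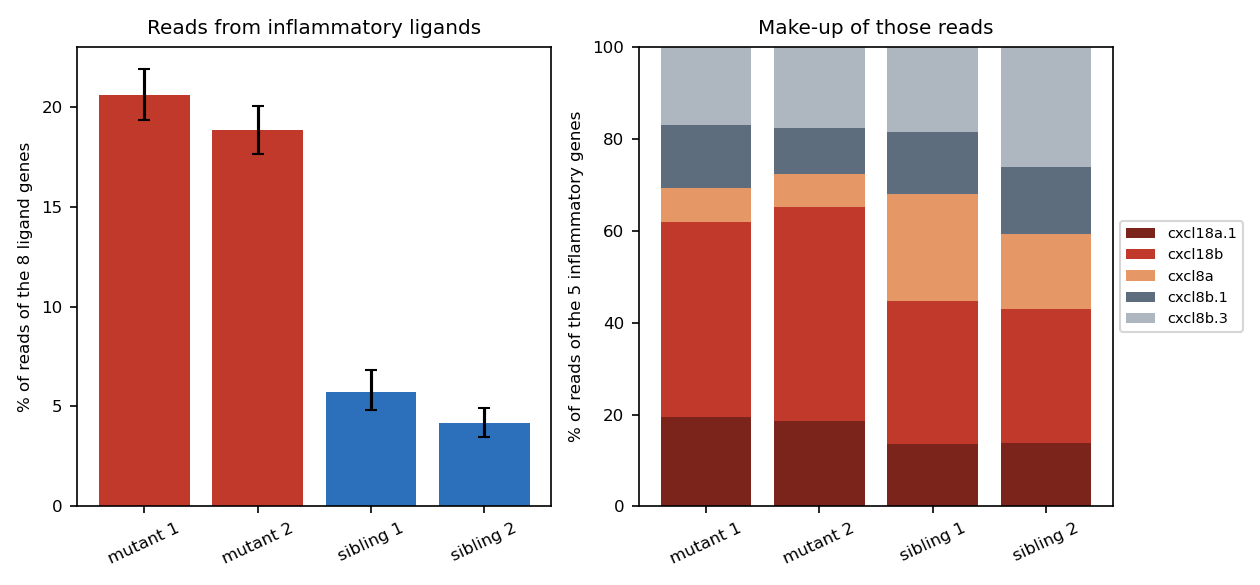
Left, reads of the 5 inflammatory ligand genes as a percentage of the reads of all 8 fitted ligand genes in each library. Bars show 95% exact binomial intervals, which cover counting error only. Right, how those inflammatory reads divide among the 5 genes. The inflammatory share is 20.6% and 18.8% in mutants and 5.74% and 4.16% in siblings, and cxcl8a takes a smaller part of it in mutants.

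The receptor gene cxcr2, which encodes the neutrophil receptor for these inflammatory ligands, was barely detected. It had 2 and 0 counts in mutants and 3 and 8 in siblings, which was too few for the fit. The ratio of counts per scaled library was 0.180, with a 95% counting interval of 0.0194 to 0.825 that leaves out the spread between libraries. Without mutant replicate 1 no mutant count is left, and without mutant replicate 2 the ratio was 0.373. Both mutant counts of cxcr2 were below both sibling counts, with 2 counts against 3 at the closest. Mutant levels lay below sibling levels in this way for 35.1% of all genes tested. So few counts of cxcr2 leave the direction and the size of its difference uncertain.

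The other CXC genes are all remaining rows named as CXC ligands, CXC receptors or Ackr3 receptors. As the ligand genes above had been taken out with their levels in view, the number of higher genes left is partly set by that choice. Of these 16 genes, 8 could be tested. In edgeR's quasi-likelihood test 0 were called higher, 2 lower and 6 missed the threshold; the median log2 fold change was -0.08, beside 22.9% higher and 21.0% lower over all genes. None of the 8 was higher at an adjusted p under 0.05, but 1 of them, cxcl20, had an unadjusted p of 0.0283; in DESeq2 0 were called higher.

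Both called genes encode receptors, as do 6 of the 8 genes tested, while 2 of the 8 encode ligands. The gene cxcr4b, whose protein reads Cxcl12 in migrating cells, was at 3.66 and 3.74 CPM in mutants and 8.996 and 9.16 CPM in siblings. Libraries of a group were nearly equal, and the groups lay far apart. The gene fell by 1.29 ± 0.20 (SE) on the log2 scale (edgeR adjusted p = 3.11e-06). Set beside its ligand, the counts of cxcl12a over those of cxcr4b were 33.4 and 31.5 in mutants and 9.35 and 8.95 in siblings. Its paralogue cxcr4a had overlapping groups, with a log2 fold change of -0.20 ± 0.24 and an adjusted p of 0.531 in the same edgeR test; without sibling replicate 1 its log2 fold change was 0.09.

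The other receptor gene that fell was cxcr3.2, known in zebrafish as a chemokine receptor of macrophages. It was at 1.60 and 1.05 CPM in mutants and 4.11 and 2.57 CPM in siblings, a log2 fold change of -1.29 ± 0.33 (SE) (edgeR adjusted p = 0.00208). Leaving out sibling replicate 1 ended that call, with -0.97 at an adjusted p of 0.0505. The nearby gene cxcr3.1 had 1 and 1 counts in mutants and 11 and 9 in siblings, too few for the fit, with a ratio of 0.0990 and a 95% counting interval of 0.0112 to 0.408. The third gene of the group, cxcr3.3, was at 16.3 and 16.9 CPM in mutants and 16.4 and 15.8 CPM in siblings, with a log2 fold change of 0.05 ± 0.13.

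The scavenger receptor genes of Cxcl12 did not pass the test. The log2 fold change was 0.19 ± 0.11 (SE) for ackr3b (edgeR adjusted p = 0.158) and 0.20 ± 0.27 for ackr3a, with an adjusted p of 0.583. The ligand gene cxcl20 was at 0.50 ± 0.21, with an adjusted p of 0.0617, and cxcl19, which lies beside the cxcl8b genes, was at -0.71 ± 0.46 with an adjusted p of 0.218. Without mutant replicate 1 cxcl19 was at -1.34, and without mutant replicate 2 at -0.25. Without mutant replicate 2 both ackr3b (0.26, adjusted p of 0.0326 in edgeR) and cxcl20 (0.66, adjusted p of 0.0160) passed as higher. Of cxcl11 genes, which in mammals are ligands induced by interferon, and the remaining rows, none exceeded 11 counts in a library.

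**Figure D3:**
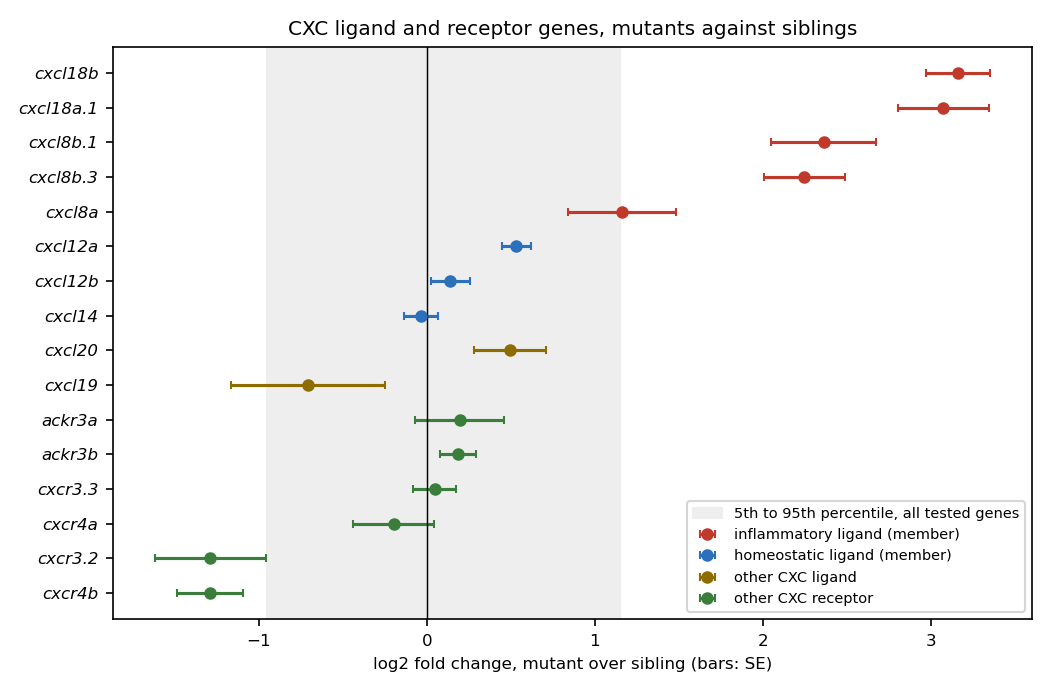
Log2 fold changes (mutant over sibling) with SE for the 8 fitted ligand genes and the 8 other CXC genes that could be tested; the grey band spans the 5th to 95th percentile of all 20097 genes. The inflammatory ligand genes lie between 1.16 and 3.16; cxcl8a, the lowest, sits at the upper edge of the band at 1.15 with an SE of 0.32, and the other 4 lie above it, while cxcr4b and cxcr3.2 lie near -1.29.

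Chromosomal position was compared through the gene order of a RefSeq table. The ligand genes lie on chromosomes 1, 7, 13, 14 and 22 and tubgcp6 on chromosome 25. The gene cxcl18a.1 is separated from cxcl12a by the single protein-coding gene tmem72, whose log2 fold change was -0.34 ± 0.25 (SE). Up to 2 tested genes on each side of each ligand gene, 25 genes in all and chosen after the member values were seen, had a median log2 fold change of -0.22. By edgeR's quasi-likelihood test 2 of these 25 were higher and 6 lower, beside 22.9% higher and 21.0% lower over all genes. Among the 16 that flank inflammatory ligand genes, 0 were higher and 4 lower, with values of -0.98 to 0.33; 1 was higher at an unadjusted p under 0.05 and 0 by DESeq2. As the inflammatory ligand genes were chosen with their levels in view, a gap between them and these neighbours was partly set by that choice. On the side away from cxcl19, the nearest tested genes lay 9 to 11 protein-coding genes from the cxcl8b genes. A shared effect of position was not tested.

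**Figure D4:**
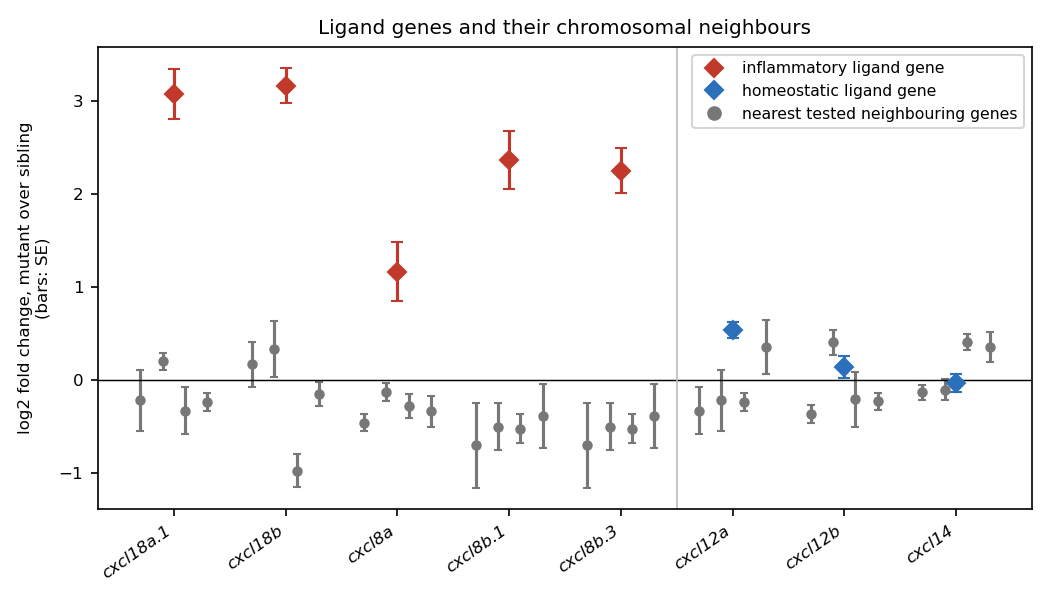
Log2 fold changes (mutant over sibling) with SE of the 8 fitted ligand genes (diamonds) and of the nearest tested genes on either side of each (grey points). Neighbours of the inflammatory ligand genes lie between -0.98 and 0.33, and these ligand genes, chosen with their levels in view, at 1.16 to 3.16.

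The other chemokine genes, of the CC and XC classes, moved in both directions. Of 44 such genes with a row, 22 could be tested, and of these 9 rose, 8 fell and 5 missed the threshold; the median log2 fold change was 0.07, or -0.02 without mutant replicate 1, 0.03 without mutant replicate 2, 0.11 without sibling replicate 1 and 0.02 without sibling replicate 2. Over all genes 22.9% were higher and 21.0% lower. The 3 with the smallest p were ccl25b, ccr9a and ccl19b. The ligand gene ccl25b rose by 1.06 ± 0.10 (SE), while ccr9a, which encodes the receptor of Ccl25 on lymphocytes, changed by -2.32 ± 0.22. The paralogue ccl25a did not pass, at 0.25 ± 0.13 (edgeR adjusted p = 0.129). Split by role after the values were seen, all genes that rose encode ligands, and those that fell encode ligands or receptors. Of the tested receptor genes, ccr9a, ccr9b, ccr6b and ccr12a fell, and ccr6a and ccr8.1 missed the threshold. The change of ccr9b was -5.19 ± 0.68, from 0 and 2 counts in mutants and 39 and 42 in siblings. The gene ccl19b, related to a mammalian ligand that guides lymphocytes and dendritic cells, rose by 1.70 ± 0.17, from 5.74 and 4.46 CPM in siblings to 17.0 and 15.5 CPM in mutants. The rows ccl38.6 and ccl38a.3 held the same counts in every library; counted once, they leave 7 genes that fell.

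Genes of cytokines and of the NF-kB pathway, which in mammals drives transcription of interleukin 8, were called higher or did not pass. Of 29 genes 24 were tested, of which 10 rose, 0 fell and 14 missed the threshold, beside 22.9% higher and 21.0% lower over all genes; the median was 0.29. Without mutant replicate 1 there was 1 that fell. The prostaglandin synthase gene ptgs2b (1.95 ± 0.11, log2 fold change ± SE), the cytokine gene il11a (4.78 ± 0.36) and the macrophage growth factor gene il34 (1.34 ± 0.19) had the smallest p. The gene il1b, of the cytokine interleukin 1 beta and named here with its values known, was read at 6.09 and 3.52 CPM in mutants and 2.13 and 1.50 CPM in siblings. Its log2 fold change was 1.43 ± 0.30 (edgeR adjusted p = 0.00023). Of the NF-kB subunit genes, nfkb2 (0.45 ± 0.10, log2 fold change ± SE) and rel (0.33 ± 0.11) were called higher by edgeR. The subunit genes nfkb1 (0.25 ± 0.15), rela (-0.03 ± 0.14) and relb (0.08 ± 0.11) were not. Of the genes named as NF-kB inhibitors, nfkbiaa (-0.02 ± 0.10), nfkbiab (-0.15 ± 0.09), nfkbib (-0.02 ± 0.09) and nfkbie (0.24 ± 0.14) did not pass. The gene nfkbiz (0.34 ± 0.11) was called higher. Activity of the pathway was not tested. The gene tnfa had 1 count in all libraries together. DESeq2 called 6 genes of the list higher and 0 lower, and 0 were lower at an unadjusted p under 0.05 in edgeR. Over all genes DESeq2 also called fewer, with 3207 higher and 2916 lower, where edgeR called 4595 higher and 4225 lower.

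Genes that act downstream of chemokine receptors or hold chemokines at cell surfaces were mixed. Of 27 entries 23 were tested, of which 9 rose, 4 fell and 10 missed the threshold, beside 22.9% higher and 21.0% lower over all genes. The median was 0.04, or 0.0120 without mutant replicate 1 and 0.0788 without sibling replicate 1, and 6 genes rose without sibling replicate 1 and 6 without sibling replicate 2. The small GTPase genes rac1a (1.16 ± 0.09, log2 fold change ± SE) and rac2 (0.71 ± 0.11), the latter needed for neutrophil motility in zebrafish, rose, as did the inhibitory G protein gene gnai2a (0.68 ± 0.09). Among the 4 that fell, wasb changed by -1.90 ± 0.30. It was at 0.887 and 1.49 CPM in mutants and 4.32 and 4.61 CPM in siblings.

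Markers of the cells that carry these receptors moved too, and their part in the chemokine values was not tested. Of 18 tested neutrophil markers 9 rose, 5 fell and 4 missed the threshold, beside 22.9% higher and 21.0% lower over all genes. The median was 0.17, or 0.03 without mutant replicate 1 and 0.33 without mutant replicate 2. The chemotactic factor gene lect2l (3.68 ± 0.15, log2 fold change ± SE) and the metalloproteinase gene mmp9 (2.78 ± 0.11) rose, and the carboxypeptidase gene cpa5 fell by 1.27 ± 0.09. The summed level of the list was 1265 and 1203 CPM in mutants and 2090 and 2048 CPM in siblings. Without cpa5, which took most of that sum, it was 490.1 and 406 CPM in mutants and 178 and 169 CPM in siblings, so the direction of the sum depends on that gene. The pancreatic protease genes ela2, at 305 and 289 CPM in mutants and 1181 and 1281 CPM in siblings, and cela1.1, with a log2 fold change of -0.98 ± 0.17, fell as well; whether cpa5 reads came from neutrophils was not tested. Of the sum without cpa5, mmp9 gave 199 and 157 CPM in mutants and 28.6 and 23.5 CPM in siblings. The part of lect2l was 74.6 and 55.5 CPM in mutants and 4.82 and 5.24 CPM in siblings. In mutants that sum thus leans on mmp9 and lect2l. The lysozyme gene lyz had 3 and 0 counts in mutants and 14 and 22 in siblings. Further markers of the list, named with their values known, went both ways. The log2 fold change was 0.44 ± 0.12 for mpx, -0.67 ± 0.13 for npsn and -1.12 ± 0.31 for csf3r.

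Of 23 tested macrophage markers 2 rose, 12 fell and 9 missed the threshold, beside 22.9% higher and 21.0% lower over all genes; the median was -0.54. The summed level was 225 and 217 CPM in mutants and 251 and 243 CPM in siblings. Of that sum, timp4.3 gave 74.1 and 60.5 CPM in mutants and 59.6 and 60.4 CPM in siblings. The part of mpeg1.2 was 37.3 and 35.3 CPM in mutants and 14.1 and 13.9 CPM in siblings. The sum thus leans on genes that did not fall. The receptor gene csf1rb changed by -5.07 ± 0.42 (log2 fold change ± SE), from 2 and 4 counts in mutants and 77 and 131 in siblings. The related gene csf1ra, named with its values known, changed by only -0.42 ± 0.12. The leukocyte actin-bundling gene lcp1 changed by -1.54 ± 0.15. The marker irf8 rose by 0.70 ± 0.22 and mpeg1.2, a perforin gene of macrophages, by 1.37 ± 0.12. Its paralogue mpeg1.1 went the other way, with a log2 fold change of -0.98 ± 0.18. It was at 4.85 and 5.67 CPM in mutants and 11.1 and 9.84 CPM in siblings. The gene mpeg1.3 had 0 counts in every library.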

How the data were processed

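Whole-number read counts per gene, not normalized, are what the authors deposited, in a single table of 4 libraries. The submitters' processing notes list the build GRCz11 and the tools DESeq2 1.26.0, featureCounts 2.0.1, STAR 2.7.10a, fastp 0.23.2 and R 4.2.2, and give no order or role for them. No annotation, strandedness or rule for multi-mapping reads was given in the labels.

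Counts were fitted in R 4.3.3 with edgeR 4.0.16: filterByExpr (3139 rows removed), TMM scaling, glmQLFit with legacy=FALSE and glmQLFTest, with Benjamini-Hochberg adjustment over the 20097 genes tested and a threshold of 0.05. SE is the size of the log2 fold change over the square root of F. CPM uses the TMM-scaled library totals and is given per library or as mean ± SD. DESeq2 1.42.0, other scalings, no filter, a replicate block and leaving out each library were the alternatives. Gene order and chromosomes came from a RefSeq table of GRCz12tu, and no coordinates are given.

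The 10 genes and all lists were chosen with earlier results of these data known. Besides the 10 genes and tubgcp6, the text names every tested gene of the other CXC genes and the 3 with the smallest p of each further list; other names were chosen after their values were seen. Ratios of low counts have 95% exact binomial intervals.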

Additional observations from a re-analysis of the deposited data

How the results depend on the processing

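Under the other scalings, no filter, DESeq2 and the replicate block, the log2 fold changes of the 8 ligand genes moved by less than the spread between replicates. Leaving out a library gave 2.17 to 2.65 for the median of the inflammatory ligand genes, 0.05 to 0.21 for that of the homeostatic ones and -0.09 to 0.03 for cxcl14. The same step gave 2977 to 4840 genes called higher and 2429 to 4680 lower over all genes (both lowest values without sibling replicate 2). Among other CXC genes it gave 0 to 2 higher (2 without mutant replicate 2), 1 to 3 lower and a median of -0.248 to 0.0784. It gave 0 to 1 lower cytokine and NF-kB genes, 1 to 3 higher macrophage markers, a median of 0.0120 to 0.0788 for the signalling genes and a ratio of 0 to 0.373 for cxcr2. DESeq2 called 6 cytokine and NF-kB genes higher and 1 macrophage marker, and over all genes 3207 higher and 2916 lower. Without the filter 1 cytokine and NF-kB gene was lower, and upper-quartile scaling gave a median of 0.0130 for the signalling genes. The cause of these shifts was not tested.

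With the replicate number as a block, the log2 fold change was 3.16 for cxcl18b, 1.14 for cxcl8a and 0.53 for cxcl12a. Deviations of same-numbered libraries had a correlation of 0.0182 across genes, so the numbers were not taken to pair the libraries. Depth limits what can be said of cxcr2, cxcr3.1 and the cxcl11 genes, which had too few counts for the fit.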
